A study of Mus musculus with 11 samples.

Results

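The genes described here are those of the mouse proteasome: the subunits, activators, inhibitor and assembly factors whose symbols start with Psm followed by a letter from a to g and a digit. They were taken by symbol and by a mean deposited count of at least 10, and 48 of the 17118 genes in the table qualified. This rule uses no comparison between groups, but it was chosen with earlier results of these data known. The 48 comprise 14 constitutive subunits of the 20S core (Psma1 to Psma7 and Psmb1 to Psmb7), 3 inducible catalytic subunits (Psmb8, Psmb9 and Psmb10), 17 subunits of the 19S regulatory particle (6 ATPases, the Psmc genes, and 11 non-ATPases, Psmd genes), 3 assembly factors of the 19S particle, 5 genes of activator subunits, the inhibitor gene Psmf1, 4 assembly factors of the 20S core, and Psmc3ip. Psmc3ip matches by its symbol only: it encodes a partner of meiotic recombinases and no proteasome subunit. It was the member closest to the count minimum, with a mean of 62.6 counts. Just outside stood Psmb6-ps2, a pseudogene with a mean of 8.73 counts; it was listed at 0, 15, 0, 0 and 0 counts in AC-T mice 501, 502, 503, 600 and 602, and at 11 to 17 counts in the 6 saline libraries.

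The proteasome degrades proteins that carry chains of ubiquitin. Its 20S core is a barrel of stacked rings: the outer rings of alpha subunits gate the entrance, and the inner rings of beta subunits hold the proteolytic sites, of which Psmb5 carries the chymotrypsin-like, Psmb6 the caspase-like and Psmb7 the trypsin-like activity. The 19S particle caps the barrel, recognises and removes ubiquitin, and unfolds and threads the substrate with its ring of ATPases. Interferon gamma induces Psmb8, Psmb9 and Psmb10, which take the places of Psmb5, Psmb6 and Psmb7 in newly built cores, the immunoproteasome, and it also induces the activator subunits Psme1 and Psme2. In neurons the proteasome is known for the turnover of synaptic proteins, and in brain tissue the immunoproteasome is found mostly in microglia and other non-neuronal cells.

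Poly(A)-selected RNA of hippocampal tissue punches was sequenced from female C57/BL6J mice aged 12 weeks at treatment. All mice received 8 weekly intraperitoneal injections. The AC-T group (5 mice: 501, 502, 503, 600 and 602) received 4 injections of doxorubicin at 2 mg/kg with cyclophosphamide at 50 mg/kg, followed by 4 injections of paclitaxel at 5 mg/kg. The control group (6 mice: 201, 202, 203, 300, 301 and 302) received 0.9% saline, and the sample titles give a time of 1 month for both groups. The comparison addresses what this breast cancer regimen leaves behind in hippocampal gene expression. The labels name no tumour and no transgene. The first digit of the mouse number, called the series below, was 5 or 6 for AC-T and 2 or 3 for saline mice; its meaning is not given in the labels, each series held a single treatment, and so series and treatment cannot be told apart.

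Libraries held 23389813 to 32121430 counts, and the 48 genes took 0.263% to 0.299% of them. Xist was listed at 0 in saline mouse 300 and at 13057 to 22963 counts in each of the other 10 libraries, all labelled female, so results are also given without that library. The tissue label was checked on marker genes. All 12 markers of hippocampal pyramidal and granule neurons were present, with log2 fold changes above 0 in 7 and below 0 in 5. Of the 12, 2 passed the test, Mpped1 and Neurod6, both higher after AC-T. The lowest was C1ql2, at -0.43. Among 14 genes that mark the thalamus, which adjoins the hippocampus, 13 passed the test as lower in AC-T mice; their summed level was 790 to 1124 CPM (counts scaled by library size) in AC-T and 1451 to 2162 CPM in saline libraries, so the groups did not overlap. The sum of 10 pan-neuronal markers ranged from 7858 to 9337 CPM in AC-T and from 6063 to 8497 CPM in saline libraries, and 1 of them, Syt1, was higher after AC-T. Of 11 astrocyte markers 3 were lower after AC-T, Aqp4, S100b and Slc4a4 (log2 fold changes of -0.41 to -0.46), and 9 were below 0; they summed to 3838 to 5262 CPM in AC-T and 3938 to 4969 CPM in saline libraries. What part the makeup of the punches has in the values below was not tested; in bulk tissue, fewer cells of a type and less RNA per cell cannot be told apart.

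No proteasome gene passed the test between AC-T and saline. At an adjusted p under 0.05, 0 of the 48 genes were called, where 8.47% of all 15353 genes tested were called, 4.89% as higher and 3.58% as lower. All 48 members had passed the filter on low counts. At an unadjusted p under 0.05 there were 8 members (16.7%, against 24.9% of all genes), and all 8 were on the higher side: Psmc3, Psmd1, Psmd2, Psmd11, Psmd13 and Psmd14 of the 19S particle, and the activators Psme3 and Psme4. Of the 3829 genes of the table at that level, 2150 were on the higher side. No member separated the groups without overlap, where 7.52% of all genes did (4.42% as higher and 3.10% as lower). DESeq2 called 4 members as higher, Psmc3, Psmd1, Psmd11 and Psmd14 (8.33%, where it called 16.6% of all genes), with log2 fold changes of 0.10 to 0.14. Without saline mouse 300, edgeR again called 0 members, and the smallest adjusted p among them was 0.1003.

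The differences were small and, for most members, closely bounded in a fit that takes the mice as independent and leaves out series. The median log2 fold change was 0.035 over the 48 members and -0.0029 over all genes, and 29 members (60.4%) lay above 0, against 49.4% of all genes. The 95% interval of the fold change stayed within 1.2-fold in either direction for 43 of 48 members (89.6%, against 42.9% of all genes), within 1.5-fold for 47, and within 2-fold for all 48. The 5 members whose interval reached beyond 1.2-fold were Psmb8, Psmb9, Psme2, Psmg4 and Psmc3ip, which are among the members with the lowest counts. The median standard error of the log2 fold change was 0.056 for the members and 0.078 for all genes. Intervals with series in the fit were not computed. The smallest adjusted p among the members was 0.0757 by limma-voom, and 0.231 by limma-voom with series as a random effect.

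**Figure D1:**
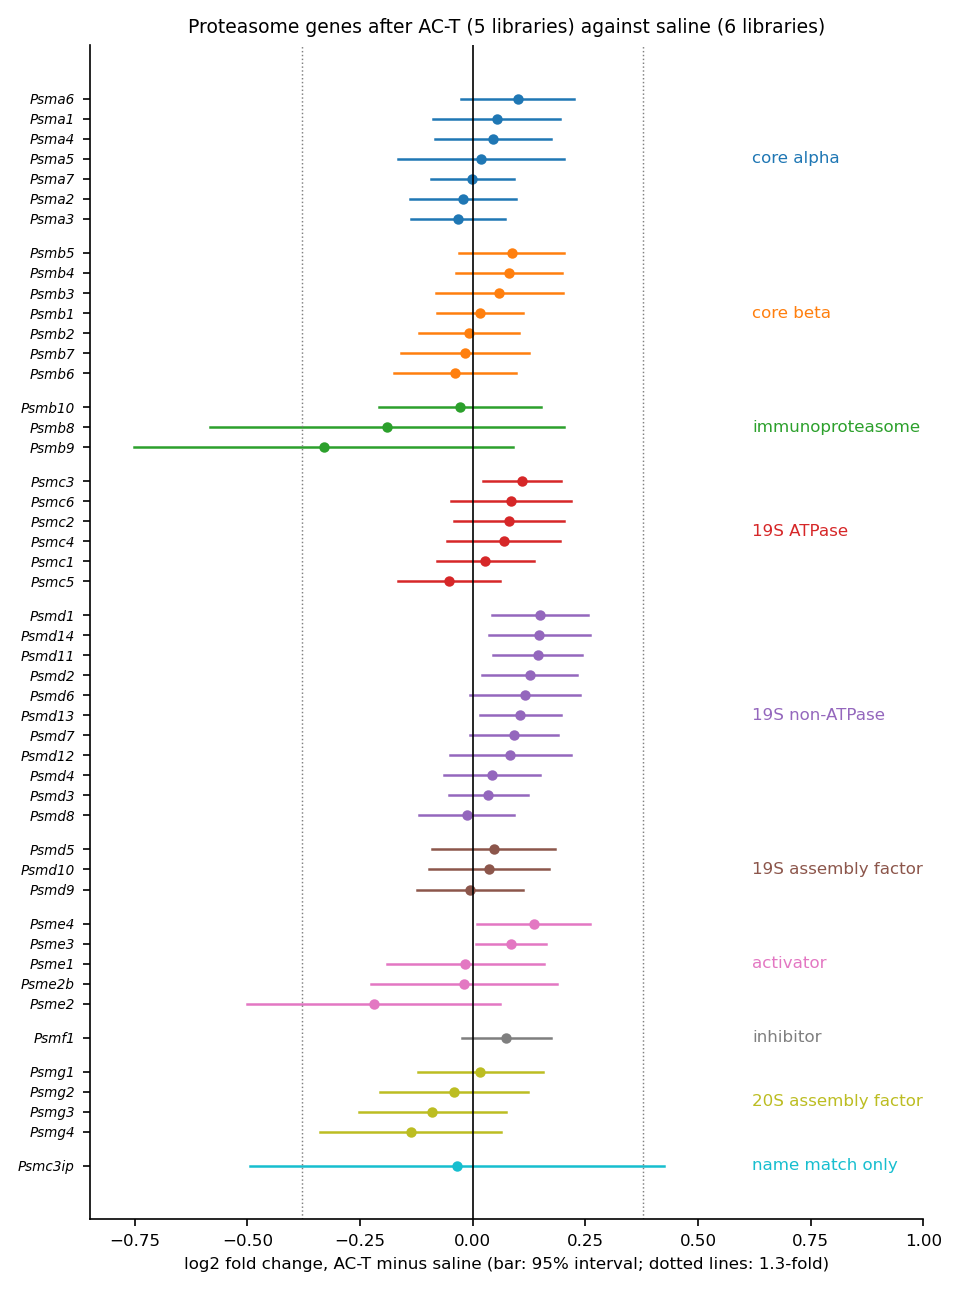
Log2 fold change of each proteasome gene, AC-T minus saline (horizontal axis), grouped by role; points are edgeR estimates, bars their 95% intervals, and dotted lines mark 1.3-fold in either direction. Of 17 genes of the 19S particle 15 lie to the right of 0, the 3 immunoproteasome genes lie to its left, Psmb8 and Psmb9 with the widest bars of the core and 19S subunits, and none of the 48 passed the adjusted threshold.

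Among the 19S genes, 15 of 17 had a log2 fold change above 0, with a median of 0.09, and 0 of 17 passed the threshold. The 11 non-ATPase subunits, which form the lid and base scaffold of the particle, had a median of 0.11 with 10 above 0; the 6 ATPases had a median of 0.07 with 5 above 0. The 15 of 17 also held without saline mouse 300 (median 0.06) and without AC-T mouse 502 (median 0.06). Without the 3 saline mice of series 3, however, 9 of 17 were above 0 with a median of 0.03, and without those of series 2 all 17 were, with a median of 0.15.

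Psmd1, a large scaffold subunit of the base, had the highest log2 fold change of all members. It measured 94.7, 112, 98.4, 100.8 and 109 CPM in AC-T mice 501, 502, 503, 600 and 602, and 88.5 CPM at the lowest, 92.9 at the median and 98.2 at the highest among saline libraries. The groups overlapped by AC-T mouse 501 alone, which lay below saline mouse 202, and AC-T mouse 502 was the highest. The log2 fold change was 0.15 ± 0.049 (SE; AC-T n = 5, saline n = 6), a 1.11-fold difference with an adjusted p of 0.0802 by edgeR's quasi-likelihood test. Without AC-T mouse 501 the adjusted p was 0.0484, and Psmd1 was then the single member called.

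Psmd14, the deubiquitinase that strips ubiquitin chains from substrates at the lid, and Psmd11, a lid subunit, stood next (both chosen for mention after their values were seen). Psmd14 measured 71.8, 77.4, 69.8, 67.0 and 64.4 CPM in the AC-T libraries and 60.8 to 69.0 CPM in the saline libraries, with a median of 62.7. Psmd11 measured 44.7, 49.9, 43.1, 44.2 and 47.2 CPM after AC-T and 39.7 to 43.4 CPM in saline, with a median of 41.3. In both genes AC-T mouse 502 was the highest library and the groups overlapped. The log2 fold changes were 0.15 for Psmd14 (adjusted p = 0.0974) and 0.14 for Psmd11 (adjusted p = 0.0704) by edgeR. Psmd1, Psmd11 and Psmd14 were the 3 members (6.25%) with an adjusted p under 0.1, where 14.9% of all genes had one.

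At the other end of the 19S genes stood Psmd8, a lid subunit, and the ATPase Psmc5. Psmd8 measured 85.8, 92.0, 88.0, 87.8 and 83.4 CPM after AC-T and 82.9 to 96.2 CPM in saline, with a median of 86.6 and a log2 fold change of -0.013. Psmc5 measured 143, 141, 151, 137 and 141 CPM after AC-T and 135 to 160 CPM in saline, with a median of 147 and a log2 fold change of -0.052. In both genes saline mice 201 and 202 were the highest libraries. Psmc3, another ATPase of the same ring and the highest of the ATPases, measured 122, 128, 124, 126 and 128 CPM after AC-T and 110 to 125 CPM in saline, with a median of 115, a log2 fold change of 0.11 ± 0.039 (SE) and an adjusted p of 0.109. All 5 AC-T values of Psmc3 lay above 5 of the 6 saline libraries.

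The 19S genes were compared between libraries as a class. Expressed as the median deviation of the 17 genes from their own means, in log2 CPM, AC-T mouse 502 stood highest at 0.16 and held the highest value of 9 of the 17 genes; saline mouse 300 stood lowest at -0.12 and held the lowest value of 8. The other AC-T libraries lay between 0.013 and 0.042, saline mice 201 and 202 at 0.065 and 0.037, and saline mice 203, 301 and 302 between -0.082 and -0.074. These 2 extremes were also the extremes of the neuronal and oligodendrocyte markers: AC-T mouse 502 had the highest summed level of the 10 neuronal markers (9337 CPM) and the lowest of the 10 oligodendrocyte markers (8488 CPM), and saline mouse 300 had the lowest neuronal (6063 CPM) and the highest oligodendrocyte sum (15360 CPM). The part of these markers in the 19S values was not tested.

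**Figure D2:**
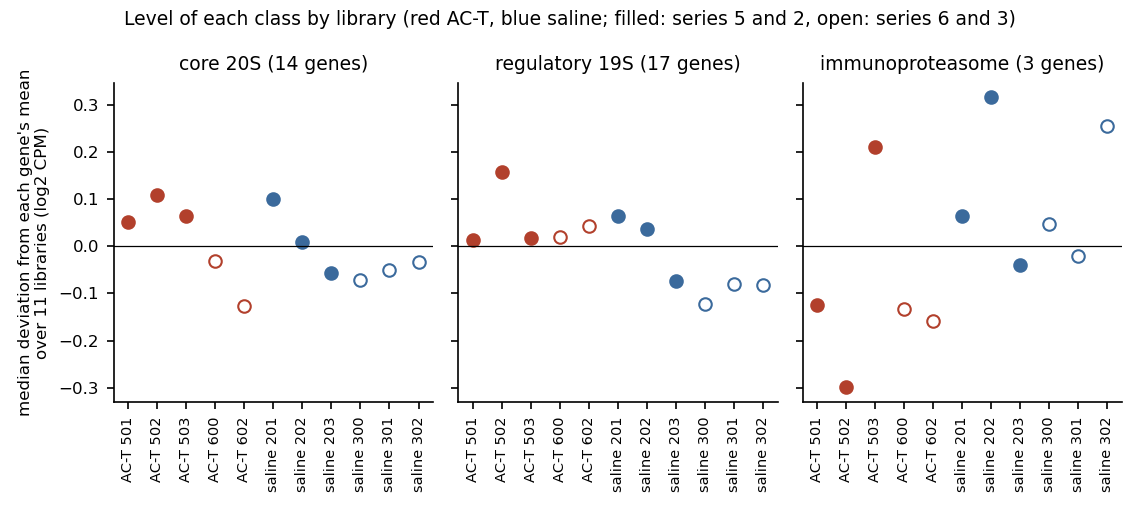
Median deviation of the core, 19S and immunoproteasome genes from each gene's mean over the 11 libraries (vertical axis, log2 CPM), for each library; red marks AC-T and blue saline, filled symbols series 5 and 2, open symbols series 6 and 3. In the 19S panel AC-T mouse 502 stands alone at 0.16, and in the core panel the filled AC-T libraries lie at 0.05 to 0.11 and the open ones at -0.03 and -0.13.

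The constitutive core genes lay on both sides of 0. Of the 14 genes 8 had a log2 fold change above 0 and 6 below, the median was 0.018, and 0 passed the threshold, at an unadjusted p under 0.05 as well. Psma6, an alpha subunit, was the highest: it measured 87.2, 85.9, 86.3, 75.6 and 73.4 CPM after AC-T and 70.6 to 82.5 CPM in saline, with a median of 76.4, and its log2 fold change was 0.10 ± 0.057 (SE), adjusted p 0.316. Psma6 was above every saline library in mice 501, 502 and 503 and within the saline range in mice 600 and 602. Psma3 was the lowest of the alpha subunits at -0.033, with 34.0, 30.6, 34.0, 32.4 and 29.2 CPM after AC-T and 30.7 to 34.4 CPM in saline, with a median of 32.9; AC-T mice 502 and 602 were the lowest libraries, and the groups overlapped. Psmb5, the chymotrypsin-like subunit and target of proteasome inhibitors such as bortezomib, was the highest of the beta subunits. It measured 78.0, 80.0, 80.3, 75.4 and 70.0 CPM after AC-T and 67.1 to 80.1 CPM in saline, with a median of 72.1 and a log2 fold change of 0.09 (adjusted p = 0.351). Psmb6, the caspase-like subunit, was the lowest of the beta subunits at -0.039, with 91.0, 87.7, 93.4, 85.9 and 74.0 CPM after AC-T and 83.6 to 96.0 CPM in saline, with a median of 87.1. AC-T mouse 602 was the lowest library for Psmb6, as it was for 7 of the 14 core genes.

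Within the AC-T group the core genes were compared between series. All 14 were lower in series 6 (mice 600 and 602) than in series 5 (mice 501, 502 and 503), with a median log2 difference of -0.15, from -0.04 to -0.36, and 9 of the 14 had an unadjusted p under 0.05; the 19S genes had a median of -0.026 in the same contrast, with 11 of 17 below 0. No member passed the adjusted threshold there, where 0.117% of all genes did, and the smallest adjusted p was 0.148; at an unadjusted p under 0.05 there were 14 members (29.2%, against 13.5% of all genes). In saline mice all 17 of the 19S genes were lower in series 3 than in series 2, with a median of -0.10, and 12 of 14 core genes were lower with a median of -0.08; the difference between the classes was not tested. Again 0 members passed, where 1.03% of all genes did (0.528% as higher and 0.502% as lower in series 3), with a smallest adjusted p of 0.0803 (Psmc1, a 19S ATPase), and 11 members had an unadjusted p under 0.05 (22.9%, against 20.1%). The direction of the core genes between treatments rested on which series was used: 1 of 14 lay above 0 without series 5, and 14 of 14 without series 6. These series differences, of -0.083 (saline) and -0.094 (AC-T) at the median of the 48 members, were larger in size than the 0.035 between treatments. They rest on fewer mice, however, and whether they exceed it by more than the spread between mice was not tested.

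The counts of 10 members were divided with other rows of the table, and for 3 of them the member itself held the smaller share. Salmon assigns a read that matches several transcripts in fractions, and whole counts appeared again when the member was added to 1 or 2 other rows (within 0.011 of a whole number for 2 rows and 0.016 for 3, in all 11 libraries). Psma3 held 32.98% to 35.9% of its sum with Gm13835, a processed pseudogene at chr6:31141979-31142663 (minus strand, GRCm38); over the 665 aligned bases the sequences did not differ. Psma5 held 19.97% to 23.8% of its sum with Gm12989 (chr4:135715868-135716598, minus strand) and Gm8394 (chr10:85313488-85314439, plus strand), processed pseudogenes that differ from its coding sequence at 7 and 8 aligned bases. The stretches below, from the GENCODE transcripts on GRCm38, run 5′ to 3′ from the middle of the coding sequence, positions 340 to 429 of Psma3 and 319 to 408 of Psma5, and show how little there is to tell the rows apart; capitals mark bases that differ between the rows of a gene.
Psma3 (chr12): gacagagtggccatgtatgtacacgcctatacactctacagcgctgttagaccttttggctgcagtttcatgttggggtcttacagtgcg
Gm13835 (chr6): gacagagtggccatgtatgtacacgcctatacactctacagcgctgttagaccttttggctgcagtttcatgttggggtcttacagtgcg
Psma5 (chr3): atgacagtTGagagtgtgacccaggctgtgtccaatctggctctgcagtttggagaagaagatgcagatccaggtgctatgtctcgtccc
Gm12989 (chr4): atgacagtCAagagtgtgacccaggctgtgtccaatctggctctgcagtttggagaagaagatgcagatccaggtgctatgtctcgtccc
Gm8394 (chr10): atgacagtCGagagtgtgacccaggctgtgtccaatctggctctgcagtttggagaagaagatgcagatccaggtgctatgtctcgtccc

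Summing the rows changed levels far more than differences. In saline libraries Psma5 went from 12.2 to 55.0 CPM, 4.52 times its own row, and Psma3 from 32.8 to 94.1 CPM. The log2 fold change of Psma5 went from 0.018 to 0.08 and that of Psma3 from -0.033 to 0.0039, and 0 members passed with the rows summed. Psma4 held 74.6% to 77.9% of its sum with Gm6542, Psmb3 50.2% to 55.5% with Gm4950 and Gm6467 (the latter not compared by sequence here), Psmc1 89.8% to 91.1% with Gm9575, Psmd11 80.8% to 83.1% with Gm14048, and Psmd2 82.9% to 84.8% with Gm5422. Psmd1 held 78.3% to 82.1% of its sum with Armc9 (chr1:86154780-86278284, plus strand) and Gm21972 (chr1:86133637-86162788, plus strand). Armc9, a protein-coding gene of its own, held 16.9% to 20.9% and Gm21972 0.728% to 1.25%. By their coordinates these gene models overlap each other. They were neither compared with Psmd1 by sequence nor summed with it. How much of the Armc9 count is divided with Psmd1 is not known. Of the other 38 members, 36 had whole counts in every library.

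**Figure D3:**
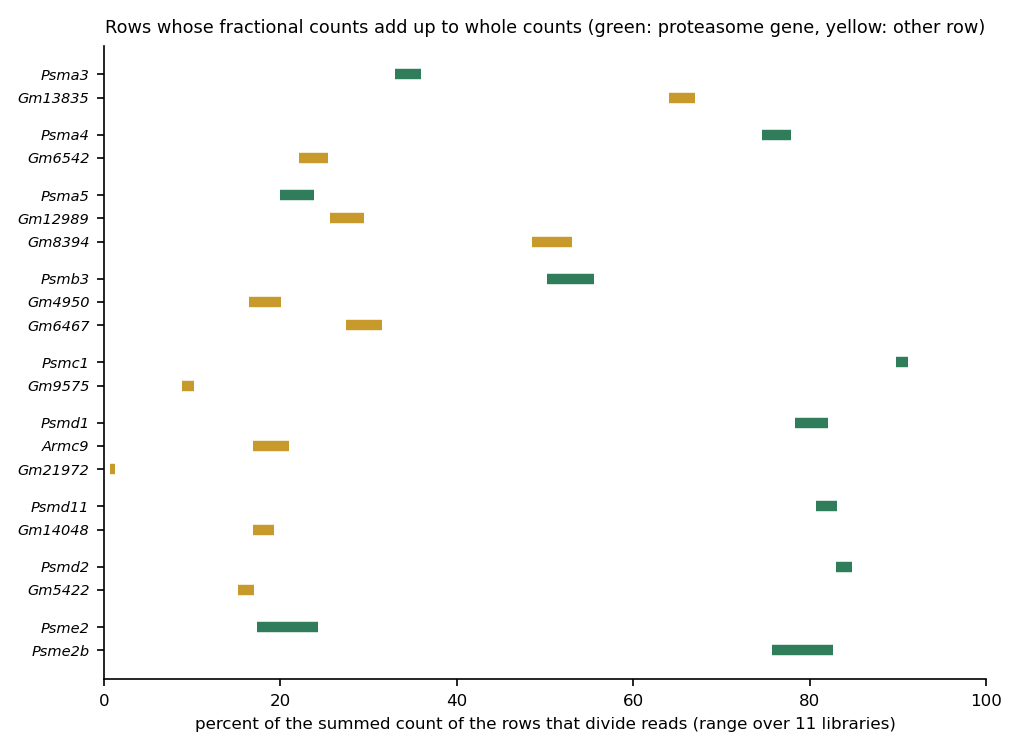
Share of the summed count held by each row (horizontal axis, percent; bars span the 11 libraries) for the sets of rows that divide reads with a proteasome gene, green for proteasome genes and yellow for other rows. Psma3 holds 32.98% to 35.9% of its sum and Psma5 19.97% to 23.8%, while Psmc1 holds 89.8% to 91.1%.

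The 3 immunoproteasome genes all had log2 fold changes below 0, and none passed; the errors of Psmb8 and Psmb9 were the widest of the core and 19S subunits. Psmb8, which replaces Psmb5, measured 3.47, 3.67, 6.45, 4.25 and 3.60 CPM in AC-T mice 501, 502, 503, 600 and 602, and 3.66 to 5.89 CPM in saline, with a median of 4.83. AC-T mouse 503 was the highest of all 11 libraries, and the other 4 AC-T libraries lay below the saline median. Its log2 fold change was -0.19 ± 0.18 (SE), with a 95% interval of -0.58 to 0.20 and an adjusted p of 0.566. Psmb9, which replaces Psmb6, measured 2.17, 1.76, 2.73, 1.71 and 2.22 CPM after AC-T and 2.18 to 3.63 CPM in saline, with a median of 2.53. Its log2 fold change of -0.33 ± 0.19 (SE) was the lowest of all members; the 95% interval ran from -0.75 to 0.09, and the adjusted p was 0.322. Psmb10, which replaces Psmb7, was the most abundant of the 3, with 22.5, 23.8, 26.7, 21.1 and 20.7 CPM after AC-T and 19.9 to 27.0 CPM in saline, with a median of 23.4; its log2 fold change was -0.028 ± 0.082 (SE; adjusted p = 0.878). In all 3 genes AC-T mouse 503 was the highest of the AC-T libraries.

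Because each inducible subunit competes with a constitutive one for the same place in the ring, the count of the first was also taken as a percent of the second within each library. Psmb8 stood at 5.57% ± 1.46 (SD, n = 5) of Psmb5 after AC-T and 6.78% ± 1.09 (SD, n = 6) in saline, a log2 difference of -0.30 (exact permutation test, two-sided, p = 0.115; 0.172 after Benjamini-Hochberg adjustment over the 3 ratios). Psmb9 stood at 2.46% ± 0.482 (SD, n = 5) of Psmb6 after AC-T and 2.99% ± 0.475 (SD, n = 6) in saline, a log2 difference of -0.29 (exact permutation test, p = 0.0909; adjusted 0.172). Psmb10 stood at 22.2% ± 1.85 (SD, n = 5) of Psmb7 after AC-T and 22.3% ± 1.41 (SD, n = 6) in saline (log2 difference -0.011, exact permutation test, p = 0.861). The groups overlapped in all 3 ratios, and the smallest p the 462 possible splits allow is 0.00216. In AC-T mouse 503 Psmb8 stood at 8.04% of Psmb5, within the saline range of 5.46% to 8.26%, while the other AC-T libraries lay between 4.45% and 5.64%. Without AC-T mouse 503 the log2 difference for Psmb8 was -0.44 (exact permutation test, p = 0.0143). Without AC-T mouse 602 that for Psmb9 was -0.37 (exact permutation test, p = 0.0476). These values are unadjusted and were the single ones under 0.05 on leaving out each library: the other 10 gave exact permutation p of 0.0794 to 0.248 for Psmb8 and 0.0667 to 0.205 for Psmb9.

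**Figure D4:**
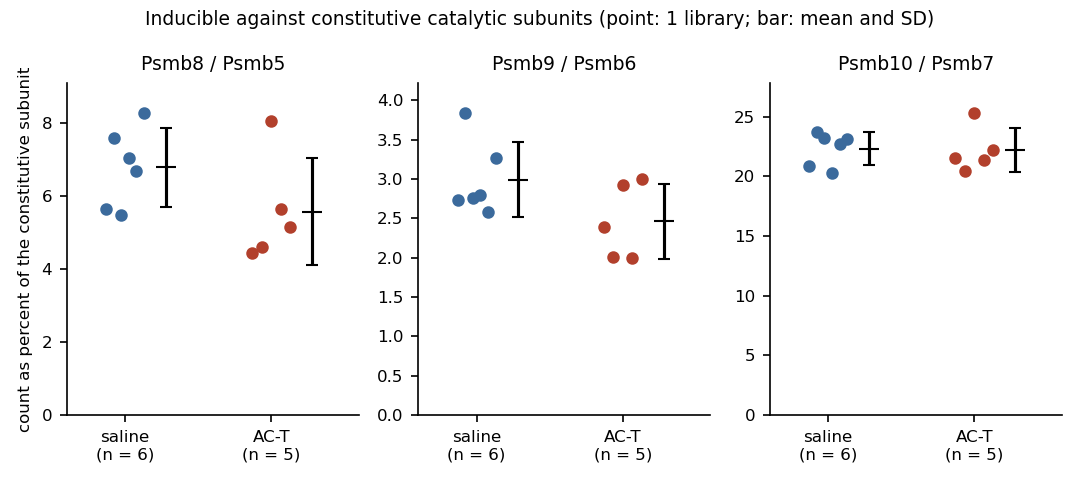
Count of each inducible catalytic subunit as a percent of the constitutive subunit it replaces (vertical axis, from 0) in saline (6 libraries, blue) and AC-T (5 libraries, red); points are libraries, bars the mean and SD. For Psmb8 over Psmb5 the AC-T library of mouse 503 stands at 8.04%, above the other 4 at 4.45% to 5.64% and within the saline range of 5.46% to 8.26%.

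Microglia and endothelial cells carry immunoproteasome genes, so their markers are given beside these values. The 12 microglial markers summed to 477 to 612 CPM in AC-T and 469 to 579 CPM in saline libraries, and 0 of the 12 passed the test. The 10 endothelial markers summed to 287 to 357 CPM in AC-T and 328 to 371 CPM in saline, and 1 of them, Pecam1, was lower after AC-T. AC-T mouse 503, the highest AC-T library for the 3 immunoproteasome genes, was also the highest AC-T library for the endothelial sum (357 CPM), and AC-T mouse 502 was the lowest of all libraries for it (287 CPM). Other libraries went the other way. AC-T mouse 501 had the highest microglial sum of all libraries (612 CPM) and the lowest Psmb8 (3.47 CPM). Saline mouse 300 had the highest endothelial sum (371 CPM) and the lowest Psmb10 (19.9 CPM). T cell markers were sparse: of 10 listed genes 5 were in the table, and 4 of these were at 0 in at least 1 library. The 5 summed to 4.53 to 14.1 CPM in AC-T and 3.21 to 5.92 CPM in saline. Of the 4 tested 1 passed, Trbc2, which was higher after AC-T. Trac went the other way, with a log2 fold change of -1.66 (adjusted p = 0.274 by edgeR), and its groups did not overlap. The part of these cells in the immunoproteasome values was not tested.

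Of the 5 activator genes 2 had log2 fold changes above 0 and 3 below, and 0 passed. Psme4, the large ATP-independent activator PA200, measured 44.1, 43.5, 45.1, 46.8 and 47.6 CPM after AC-T and 36.7 to 45.9 CPM in saline, with a median of 41.6; its log2 fold change was 0.14 ± 0.057 (SE; adjusted p = 0.164). Psme3, which forms the nuclear activator ring, stood at 0.09 on the same scale (adjusted p = 0.156). Psme1, Psme2 and Psme2b, the interferon-inducible pair and a copy of Psme2, had log2 fold changes of -0.016, -0.22 and -0.020. Psme2 measured 4.59, 4.22, 4.36, 4.22 and 3.28 CPM after AC-T and 3.83 to 5.52 CPM in saline, with a median of 5.07 (adjusted p = 0.323), and AC-T mouse 602 was the lowest of all libraries.

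The value of the Psme2 row is a division of reads. It held 17.3% to 24.3% of its sum with Psme2b (chr11:48945354-48946190, minus strand, GRCm38), whose coding sequence differs from that of Psme2 (chr14:55587441-55591113, minus strand) at 5 of 720 bases. Summed, the pair measured 21.3 ± 2.90 CPM (SD, n = 5) after AC-T and 22.2 ± 1.98 CPM (SD, n = 6) in saline, and the log2 fold change was -0.061 ± 0.091 (SE; adjusted p = 0.740 by edgeR), so that most of the -0.22 of the single row was absent from the sum. Positions 316 to 405 of the coding sequences, from the GENCODE transcripts, show the single differing base of that stretch in capitals.
Psme2: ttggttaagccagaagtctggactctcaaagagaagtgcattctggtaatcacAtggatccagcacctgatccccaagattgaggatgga
Psme2b: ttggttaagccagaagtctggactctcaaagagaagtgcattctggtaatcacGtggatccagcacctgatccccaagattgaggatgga

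The inhibitor, the assembly factors and Psmc3ip gave no called gene either. Psmf1, which encodes the proteasome inhibitor PI31, measured 30.2, 33.1, 29.2, 31.5 and 31.1 CPM after AC-T and 27.7 to 30.98 CPM in saline, with a median of 29.7 and a log2 fold change of 0.07 (adjusted p = 0.343). Psmd5, Psmd9 and Psmd10 are chaperones that bind the ATPases while the 19S base is built. Psmd5 measured 49.9, 62.2, 50.6, 50.1 and 50.6 CPM after AC-T and 46.9 to 53.8 CPM in saline, with a median of 51.1, and its log2 fold change was 0.046. AC-T mouse 502 alone stood above the saline range for Psmd5. Psmd9 measured 22.4, 25.6, 24.3, 24.2 and 21.2 CPM after AC-T and 21.8 to 24.8 CPM in saline, with a median of 23.8 and a log2 fold change of -0.0053.

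Psmg1 to Psmg4 encode chaperones that guide the alpha ring of the core, and 3 of the 4 had log2 fold changes below 0, with a median of -0.07. Psmg4 was the lowest at -0.14 ± 0.092 (SE; adjusted p = 0.397), with 7.16, 6.23, 6.85, 6.42 and 5.10 CPM after AC-T and 6.22 to 7.57 CPM in saline, with a median of 6.99. Psmg1 was the highest at 0.017, with 9.76, 9.34, 8.65, 8.00 and 9.82 CPM after AC-T and 8.36 to 9.47 CPM in saline, with a median of 8.999. Both overlapped between groups. Psmc3ip differed by -0.034 ± 0.21 (log2, SE; adjusted p = 0.944), with 2.10, 2.46, 1.80, 2.27 and 2.06 CPM after AC-T and 1.58 to 3.24 CPM in saline, with a median of 1.97.

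Levels of different genes were compared per length, as CPM per kilobase of the transcript with the longest coding sequence. In saline libraries the core genes lay between 9.83 (Psma5) and 111 (Psmb6), with a median of 58.0; with divided rows summed the lowest was Psma2 at 26.5, and the ratio of the highest to the lowest went from 11.3 to 4.19. Among beta subunits Psmb6 (111 ± 6.56, SD, n = 6) stood above Psmb7 (90.5 ± 6.77), Psmb4 (85.3 ± 5.41) and Psmb5 (80.4 ± 5.25), which overlapped within their SD, and above Psmb2 (58.6 ± 4.52) and Psmb1 (57.4 ± 2.55), which overlapped as well. The inducible subunits were at 17.9 ± 1.75 (Psmb10), 3.01 ± 0.491 (Psmb8) and 1.97 ± 0.388 (Psmb9), all below the constitutive subunits they replace. The 19S subunits ran from 14.6 (Psmd11) to 112 (Psmc5), with a median of 46.0. This order depends on the transcript chosen: with the median length of a gene's protein-coding transcripts, the highest 19S gene was Psmd2 at 213 and the lowest Psmd1 at 29.9.

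**Figure D5:**
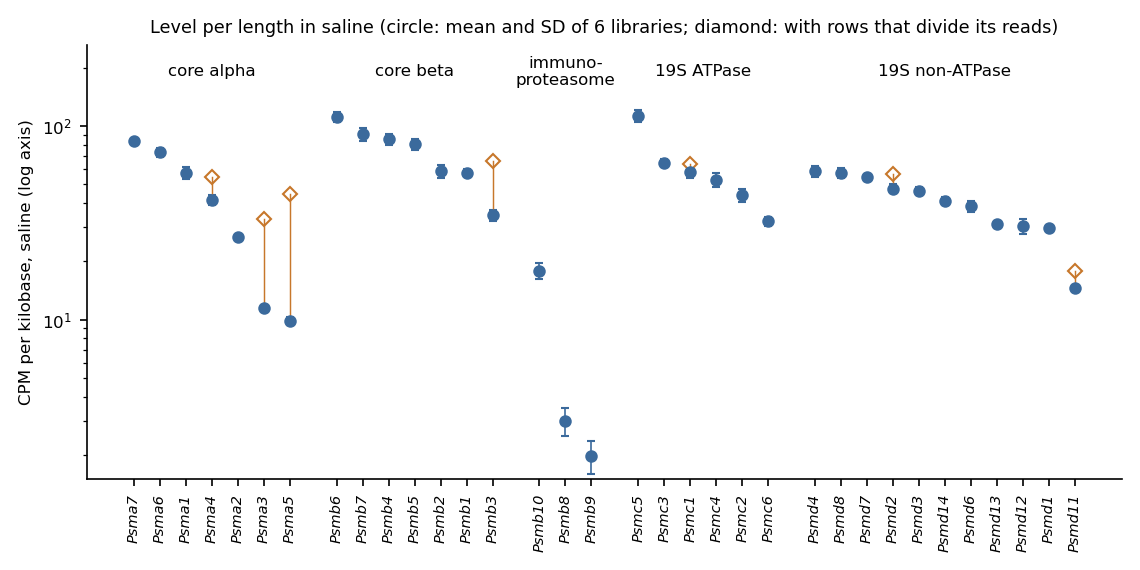
Level per length in saline libraries (vertical log axis, CPM per kilobase) for core, immunoproteasome and 19S genes; circles are the mean and SD of 6 libraries, diamonds the mean with the rows that divide reads added. Psmb8 and Psmb9 lie at 3.01 and 1.97, under every constitutive core gene, and the diamonds lift Psma5 and Psma3 from the bottom of the alpha subunits.

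Genes that work with the proteasome were counted in 5 lists, beside 8.47% of all genes called and 4.89% called as higher after AC-T. Of 12 partners of the particle (ubiquitin receptors, deubiquitinases and import factors), 1 was higher and 0 lower (8.33%): Akirin2, which brings proteasomes into the nucleus, at 42.1 ± 2.14 CPM (SD, n = 5) after AC-T and 36.0 ± 2.74 CPM (SD, n = 6) in saline (log2 fold change 0.22, adjusted p = 0.0321). Of 10 genes of ubiquitin shuttles and the segregase Vcp, 2 were higher and 0 lower (20%), the shuttles Ubqln2 (179 ± 8.81 against 152 ± 8.23 CPM, SD; log2 fold change 0.24, adjusted p = 0.0154) and Rad23b (175 ± 10.5 against 151 ± 8.09 CPM; 0.21, adjusted p = 0.0275). These shuttles carry ubiquitinated proteins to the 19S particle. Neither overlapped between groups, where 7.52% of all genes did not (4.42% as higher and 3.10% as lower). Of 14 genes of ubiquitin and its activation, 1 was higher and 0 lower (7.14%), the ubiquitin-activating enzyme Uba1 (284 ± 14.1 against 246 ± 10.1 CPM; log2 fold change 0.21, adjusted p = 0.0174). Uba1 did not overlap between groups either. The calls in these lists are those of the main fit, in which 1301 genes of the whole table passed. With series as a random effect 293 passed, and with the mean thalamic marker level as covariate 1 did. Whether the genes named here passed under those settings was not examined.

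The transcription factors and proteases that set proteasome gene levels, and the partners of the immunoproteasome in antigen presentation, gave none. Among 11 regulators (Nfe2l1, Nfe2l2 and their processing and binding partners) 0 passed and 2 had an unadjusted p under 0.05, where 24.9% of all genes had one. The smallest adjusted p was that of Sel1l, an adaptor of protein disposal at the endoplasmic reticulum (0.0567 by edgeR, log2 fold change 0.15), whose groups did not overlap. The other of the 2 was Nfe2l3, with a log2 fold change of -0.31. Nfe2l1, the factor that raises proteasome genes when proteasomes are inhibited, was at 307 ± 17.1 CPM (SD, n = 5) after AC-T and 303 ± 10.98 CPM (SD, n = 6) in saline. Among 13 antigen presentation partners 0 passed, 6 lay above 0 and 7 below, and the median log2 fold change was -0.096. An unadjusted p under 0.05 was found for 3, against the same 24.9% of all genes: Calr and Canx (0.11) on the higher side and Erap1 (-0.24) on the lower. The smallest adjusted p was that of Calr, a chaperone of the peptide-loading complex (0.131 by edgeR, log2 fold change 0.21). Tap1, a subunit of the peptide transporter and a neighbour of Psmb8 and Psmb9 in the major histocompatibility locus, was at 4.99 ± 1.13 CPM after AC-T and 4.94 ± 1.25 CPM in saline.

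The RefSeq promoter windows (GRCm38.p6; 250 bases before to 50 after the start) covered 41 of the 48 genes with 44 windows. Of 8 motifs searched on both strands, CGGAAG, the core of ETS factor sites, was in 23 member windows (52.3%), against 16.9% of all 32851 windows and 29.8% of the 11074 windows with at least the members' median GC content (58.2%; 52.7% over all windows), the GC-rich windows below. The core of interferon-stimulated elements, a pair of GAAA runs 2 bases apart, was in 5 member windows (11.4%, against 3.44% of all and 1.54% of GC-rich windows), and none of these belonged to Psmb8, Psmb9 or Psmb10. TGACNNNGC, the core of antioxidant response elements, was in 6 (13.6%, against 12.4% and 15.2%), TTCNNNGAA, a gamma-activated sequence, in 3 (6.82%, against 8.30% and 4.63%), and CCAAT in 14 (31.8%, against 37.4% and 32.3%). TGACTCAGC, which contains the antioxidant core, TGACGTCA and the kappa B site had no match in member windows. They were rare in all windows (0.454%, 1.79% and 0.155%) and in GC-rich ones (0.388%, 3.14% and 0.217%). At such shares, their absence from 44 windows says little about the members. A match is a run of letters and no measured site. Several matches to the ETS core were also found in other members, Psma6 among them. Psmc3ip, which encodes no proteasome subunit, held them at -76, -59 and -6 from the start. The stretches upstream of the start of Psmc1 (chr12:100110082-100110201, plus strand) and Psmg1 (chr16:95990961-95991080, minus strand) are shown because each holds 3 matches to the ETS core, on either strand, and that of Psmb8 (chr17:34198075-34198194, plus strand) because it is the single core or immunoproteasome gene with a gamma-activated sequence; capitals mark the matches.
Psmc1: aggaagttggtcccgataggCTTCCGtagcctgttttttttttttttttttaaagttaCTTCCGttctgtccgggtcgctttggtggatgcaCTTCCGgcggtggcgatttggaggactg
Psmg1: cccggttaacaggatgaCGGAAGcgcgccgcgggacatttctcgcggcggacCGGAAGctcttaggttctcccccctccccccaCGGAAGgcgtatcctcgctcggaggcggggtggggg
Psmb8: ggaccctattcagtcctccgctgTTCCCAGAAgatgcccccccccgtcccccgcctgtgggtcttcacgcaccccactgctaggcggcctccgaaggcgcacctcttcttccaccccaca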

How the data were processed

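Poly(A) RNA-seq libraries of 11 mice, 5 AC-T and 6 saline, were analysed from the deposited table of expected counts per gene. Per the submitters' processing notes, Dragen 4.3.6 converted base calls, FastQC 0.11.9 checked reads, and Salmon 1.9.0 made the expected counts on build GRCm39; how transcripts were summed to genes is not given in the sources used here. Every column of the table was matched to a sample by its description. The deposited expected counts were rounded, and groups were compared with edgeR 4.0.16 (R 4.3.3): filter with a minimum count of 10, TMM scaling, quasi-likelihood F test, and Benjamini-Hochberg adjustment over 15353 genes at 0.05, on a median of 11.6 degrees of freedom, prior included. All groups entered the fit without covariates; series within treatment were compared in a second fit with a mean per series. Standard errors are the log2 fold change over the root of F, and 95% intervals follow from them. Sample levels are TMM-scaled CPM. The method was tested on counts simulated with larger changes than any member showed. That test does not bear on differences of the size seen here. Ratios of inducible to constitutive subunits were compared by an exact two-sided permutation test. DESeq2 1.42.0 and limma 3.58.1 were alternatives. Members and lists were chosen with earlier results of these data known. Named with values in every library were the immunoproteasome genes and, in each class, the members with the highest and the lowest log2 fold change; from each other list, genes past the threshold, at most 4, or else the 1 with the smallest p. Summing of rows that divide reads was chosen after seeing the data. Replicates are separate mice by their numbers. Coordinates and lengths come from GENCODE M21 and RefSeq on GRCm38, a build other than that of the counts, and are used by gene identity alone.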

Additional observations from a re-analysis of the deposited data

Results flagged for a closer look

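Sets of values were each named gene, class, class difference or ratio of inducible to constitutive subunit within a treatment group. In 4 of 52 sets the highest or lowest library stood further from its neighbour than the 95% limit of Dixon's test for groups of that size. Chance gives about 1 in 20 for independent sets, and these are not independent, as they share libraries and genes. No ratio was among the 4. Psmb8 was at 6.45 CPM in AC-T mouse 503, above the other 4 AC-T libraries. Psmd5 was at 62.2 CPM in AC-T mouse 502, with the other 4 at 49.9 to 50.6 CPM. The median deviation of the 17 genes of the 19S particle was 0.16 on the log2 scale in AC-T mouse 502, above the other AC-T libraries. Psme2 was at 3.28 CPM in AC-T mouse 602, below the other 4, in a row that divides its reads with Psme2b.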

How the results depend on the processing

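No paired analysis was possible because the treatment groups share no replicate numbers. The count of 0 members called in each direction held under other scalings (RLE, upper quartile, library totals), no filter or a minimum count of 50, robust dispersion, limma-voom, series as a random effect, unrounded values, leaving out each series, summed rows and genes above 0 in every library (the last 2 chosen after seeing the data); DESeq2 called 4 as higher, and an adjusted p under 0.1 gave 3. Leaving out each library in turn gave 0 to 1 higher (Psmd1 without AC-T mouse 501), 0 lower, and a member median of 0.0090 to 0.051. That median was 0.12 with the mean thalamic marker level as covariate, a fit in which 1 gene of the whole table passed, and -0.030 without series 5. Members differing between saline series numbered 1 when library totals alone scaled the counts. Leaving out each library moved the log2 ratio difference of Psmb8 to Psmb5 over -0.44 to -0.23, of Psmb9 to Psmb6 over -0.37 to -0.22, and of Psmb10 to Psmb7 over -0.059 to 0.017.

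The direction of several members named with values turned. With the thalamic covariate these were Psma3 (0.057), Psmb10 (0.10), Psmb6 (0.048), Psmb9 (0.024), Psmc5 (0.15) and Psmd8 (0.10); without series 2, Psma3 (0.0033), Psmb10 (0.067), Psmb6 (0.0032), Psmc5 (0.031) and Psmd8 (0.063); without series 3, Psmc3ip (0.25), Psmd5 (-0.0098), Psmd9 (0.020) and Psmg1 (-0.026); without series 5, Psma6 (-0.038), Psmd5 (-0.025) and Psmg1 (-0.021); without series 6, Psma3 (0.0040), Psmb10 (0.057), Psmb6 (0.031), Psmd8 (0.0067) and Psmd9 (0.030). Psmg1 turned to -0.0084 with upper-quartile scaling and -0.0030 with library totals, and Psma3 to 0.0039 with rows summed. Leaving out each library turned Psmb10 (-0.088 to 0.016), Psmb6 (-0.068 to 0.012), Psmc3ip (-0.11 to 0.10), Psmd5 (-0.020 to 0.066), Psmd8 (-0.037 to 0.013), Psmd9 (-0.036 to 0.031) and Psmg1 (-0.011 to 0.061). The cause was not tested. The mean thalamic marker level did not overlap between groups (4.85 to 5.65 log2 CPM in AC-T and 5.91 to 6.73 in saline). A fit with it as covariate can therefore hardly separate it from treatment. The smallest adjusted p of any member in that fit was 0.782 by edgeR. Depth limits Psmc3ip, Psmb9, Psme2 and Psmb8 most, with mean counts of 62.6, 69.4, 129 and 133.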
